A study of Mus musculus with 4 samples.

Results

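This section describes 10 genes of the unfolded protein response and the integrated stress response in BV-2 cells, an immortalised mouse microglial line. The genes were taken as a list (Herpud1, Edem1, Atf6, Ern1, Ppp1r15a, Atf4, Ddit3, Trib3, Asns and Sesn2) out of 23783 genes with a symbol in the deposited count table. The list was chosen with earlier results of these data known. Each gene was represented by its most abundant RefSeq transcript record. RNA-seq libraries were made from 2 control samples and from 2 samples treated with lipopolysaccharide (LPS), a bacterial cell wall component, at 10 ng/ml for 4 h. The controls carry no dose in the labels, and their titles give the same 4 h. No genotype or other agent is labelled, and every sample is labelled as the same cell line, although the growth text also describes shaking of mixed glial cultures. Nothing in the labels says that replicates came from separate cultures, so the p-values reflect the spread of these libraries alone, which may be technical.

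The endoplasmic reticulum (ER) folds secreted and membrane proteins, and unfolded protein there is sensed by IRE1 (gene Ern1), ATF6 and PERK (gene Eif2ak3). These sensors raise chaperones and the machinery of ER-associated degradation, which passes misfolded proteins to the proteasome. PERK also phosphorylates the translation factor eIF2, as do kinases that sense amino acid lack, double-stranded RNA and haem lack. This shared arm, the integrated stress response, lowers protein synthesis overall while ATF4 is translated and switches on genes for amino acid supply, feedback and cell death. Macrophages and microglia increase secretory load after LPS, and parts of both responses are known to be engaged by Toll-like receptor signalling.

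Library totals ran from 2778686 to 3368693 counts, of which 53.4% to 67.5% lay in 5 abundant records, with the highest share in control replicate 1. Of 9 microglia and macrophage markers, 4 passed the count filter, and the summed level of the 9 ran from 1940 to 2311 normalised counts in control cells and from 2524 to 2553 after LPS. Spi1 alone rose (edgeR, log2 fold change 1.15). Csf1r (-0.21), Cd68 (-0.35) and Tyrobp (-0.18) had lower values after LPS without passing, and the part of these markers in the results was not tested. Itgam was listed at 0, which is not read here as a lack of expression. Of the 9 markers, 4 have 2 or more RefSeq records, and 1 of those 4 was tested. Of 17 markers of astrocytes, oligodendrocytes and neurons, 15 had 0 counts in every library, and the highest count of any of them in a library was 2. Of the 9 with a single RefSeq record, 7 were at 0, Aqp4, Mog and Olig2 among them, and the other 8 have more records, a class often near 0 in this table as described below. In bulk RNA, fewer cells of a kind and less RNA per cell cannot be told apart.

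Herpud1 and Ppp1r15a rose after LPS, by 4.01-fold and 3.30-fold, and no other member passed the test in either direction. Herpud1 encodes an ER membrane protein that organises the degradation complex, and Ppp1r15a encodes GADD34, the inducible phosphatase subunit that removes the phosphate from eIF2. Asns, Atf6, Edem1 and Ern1 were measured without passing, and Atf4, Ddit3, Trib3 and Sesn2 had too few counts to be tested. The test was edgeR's quasi-likelihood test across 6981 records, with a Benjamini-Hochberg adjusted p below 0.05 as threshold. Of the 6 tested members, 2 were called, both higher, where 5.53% of all records were called and 3.82% were called higher. None was called lower, where 1.7% of all records were. Since the members were chosen with earlier results of these data known, setting these shares side by side is no test of the list. The median log2 fold change of the 6 was 0.02, and that of all tested records was -0.01.

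The promoters of Herpud1, Ppp1r15a and Asns are shown because they are the 2 members that rose and an ATF4 target that did not pass the test. Each is the 250 bases before the annotated start from RefSeq, assembly GRCm38.p6, read along the gene's strand. Capitals mark matches to the motifs described next. They lie at chr8:94386179-94386428 (plus strand), chr7:45526269-45526518 (minus strand) and chr6:7693210-7693459 (minus strand).
Herpud1: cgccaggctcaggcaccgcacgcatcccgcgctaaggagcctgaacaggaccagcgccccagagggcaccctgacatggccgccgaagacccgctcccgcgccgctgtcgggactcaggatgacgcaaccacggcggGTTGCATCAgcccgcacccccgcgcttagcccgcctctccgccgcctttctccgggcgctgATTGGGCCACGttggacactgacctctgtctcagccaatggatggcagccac
Ppp1r15a: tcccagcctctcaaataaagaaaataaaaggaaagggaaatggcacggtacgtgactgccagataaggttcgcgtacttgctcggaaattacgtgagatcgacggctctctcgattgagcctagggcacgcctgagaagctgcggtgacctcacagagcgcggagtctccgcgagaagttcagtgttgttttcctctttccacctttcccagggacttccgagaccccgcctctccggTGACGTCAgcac
Asns: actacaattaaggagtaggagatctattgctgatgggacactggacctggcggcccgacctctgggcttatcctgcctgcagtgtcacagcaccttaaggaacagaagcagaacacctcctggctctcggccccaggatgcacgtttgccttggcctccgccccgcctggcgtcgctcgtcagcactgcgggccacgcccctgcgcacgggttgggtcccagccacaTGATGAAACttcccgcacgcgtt

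A promoter of 300 bases, from 250 before the start to 50 after it, was given for 9 members, all but Atf6, and 6 motifs were searched on both strands. ERSE-II (ATTGG, any base, then CCACG), an element that ATF6 and XBP1 are known to use, began 52 bases upstream of Herpud1 and was found in 12 of 32851 promoters, or 0.0365%. The C/EBP-ATF composite element (TGATGNAAN), which ATF4 is known to bind, began 113 bases upstream of Herpud1 on the opposite strand and 23 bases upstream of Asns. Trib3 had a match 14 to 22 bases past its start, and 3.95% of all promoters held this element. The cAMP response element (TGACGTCA), bound by the CREB and ATF families, began 12 bases upstream of Ppp1r15a and was present in 1.79% of promoters. The NF-kB consensus matched in Edem1 alone among the 9, at 148 bases upstream, and in 8.46% of promoters. The ERSE letters (CCAAT and CCACG 9 bases apart, 0.119% of promoters) and the UPRE core (TGACGTGG, 0.676%) had no match in these windows. No motif overlapped another in the printed sequences.

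ERSE-II matched the promoters of 12 genes, of which 9 had a record in the table and 5 were tested. Herpud1 was the 1 gene of these 5 past the threshold, where 5.53% of all records were called. At that share a set of this size would hold few calls. The other 4 had log2 fold changes from -0.22 to 0.34, with adjusted p-values of 0.574 or more in edgeR's test. Dnajb11, 1 of the 4, has 3 RefSeq records, a class often near 0 in this table as described below. The lack of a call among the 4 is thus not read as a result about ERSE-II. A match to these letters is a description of sequence and was not tested as a binding site.

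Herpud1 (NM_022331, chromosome 8, 94386429 to 94395371) had 59 and 106 counts in the 2 controls and 405 and 327 after LPS. Divided by library size after TMM scaling, these were 83.0 and 89.5 normalised counts in control cells and 374 and 320 after LPS. Both LPS libraries stood well above both controls, which differed little from each other on this scale. The means were 86.2 ± 4.58 and 347 ± 38.6 (SD, n = 2), a log2 fold change of 2.00 (SE 0.209, edgeR adjusted p 9.97e-05). An antisense gene, Gm15890, overlaps Herpud1 on the other strand, and whether counting used the strand that the library kit keeps is not given in the sources used here.

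**Figure D1:**
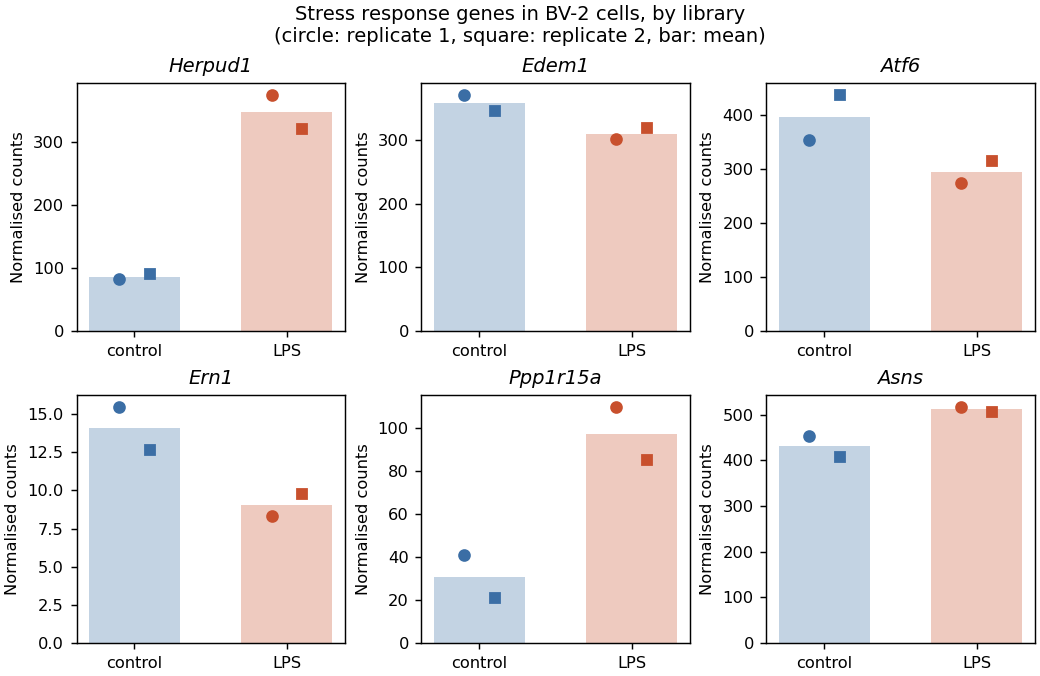
Normalised counts (y axes, linear from 0) of the 6 tested members in the control and LPS libraries (x axes). Circles are replicate 1, squares replicate 2 and bars the mean of 2 libraries. The LPS libraries of Herpud1 sit at 374 and 320 against 83.0 and 89.5 in controls, and those of Ppp1r15a at 110 and 85.1 against 40.8 and 21.1, while the other 4 genes differ by smaller ratios.

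Edem1, which encodes a lectin-like protein that extracts misfolded glycoproteins for the same degradation route, did not move with Herpud1. Edem1 (NM_138677, chromosome 6, 108824045 to 108859356) had 264 and 409 counts in controls and 326 in each LPS library. Its normalised counts were 371 and 345 in controls and 301 and 319 after LPS. The LPS values lay just below both controls, and the log2 fold change of -0.21 (SE 0.180, edgeR adjusted p 0.734) did not pass the test.

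The ER stress sensors were measured at lower values after LPS, none of them past the threshold. Atf6 encodes a membrane-tethered transcription factor that is cut free under ER stress. Atf6 (NM_001081304, chromosome 1, 170704457 to 170868585) had 252 and 519 counts in controls and 296 and 323 after LPS, or 354 and 438 normalised counts against 274 and 316. Both LPS libraries lay below both controls, of which replicate 2 was the higher, with a log2 fold change of -0.43 (SE 0.194, unadjusted p 0.0481, edgeR adjusted p 0.317). Atf6 passed as lower in edgeR after the trend of each library's values on GC and length was taken out (-0.40, adjusted p 0.0487). Without control replicate 1 the value was -0.56, and without control replicate 2 it was -0.27.

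Ern1 encodes IRE1, the kinase and nuclease that splices Xbp1 mRNA. Ern1 (NM_023913, chromosome 11, 106397620 to 106487796) had 11 and 15 counts in controls and 9 and 10 after LPS. These were 15.5 and 12.7 against 8.32 and 9.78 normalised counts. The groups did not overlap, but so few counts left a wide error, with a log2 fold change of -0.61 (SE 0.450, edgeR adjusted p 0.645). Ern1 passed the count filter only through the controls, where it was higher. Its direction and lack of overlap are thus partly set by the filter. Eif2ak3, which encodes PERK and was singled out after its values were seen, had 29.8 ± 4.38 normalised counts in control cells and 18.0 ± 0.628 after LPS (change on the log2 scale -0.74, SE 0.338, edgeR adjusted p 0.323). Atf6b, a relative of Atf6 and the most abundant gene of the sensor list, had the opposite sign. Its means were 374 ± 109 in controls and 517 ± 8.36 after LPS (change on the log2 scale 0.48, edgeR adjusted p 0.324). With the GC and length trend removed, Atf6b passed as higher (0.56, adjusted p 0.00725), as it did without control replicate 1 (0.81, adjusted p 1.41e-06), while it was 0.19 without control replicate 2 (adjusted p 0.412).

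Ppp1r15a closes the feedback loop of the integrated stress response by restoring translation. Ppp1r15a (NM_008654, chromosome 7, 45522917 to 45526268) had 29 and 25 counts in controls and 119 and 87 after LPS. Its normalised counts were 40.8 and 21.1 in controls and 110 and 85.1 after LPS. Both LPS libraries lay above both controls, of which replicate 1 was the higher. The means were 30.9 ± 13.9 and 97.6 ± 17.6 (SD, n = 2), a log2 fold change of 1.72 (SE 0.328, edgeR adjusted p 0.00864). The size depended on the control library, with 2.21 without control replicate 1 and 1.25 without control replicate 2, and it stayed past the threshold in each case. Tulp2, which overlaps Ppp1r15a on the other strand, had 0 counts in all 5 of its records. Genes with several records are often near 0 in this table, as described below, so this 0 does not show that Tulp2 was silent. Ppp1r15b, the constitutive counterpart of GADD34, is given here as a contrast chosen after its values were seen. Its normalised counts were 294 ± 30.0 in controls and 354 ± 40.4 after LPS (change on the log2 scale 0.27, SE 0.191, edgeR adjusted p 0.610).

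**Figure D2:**
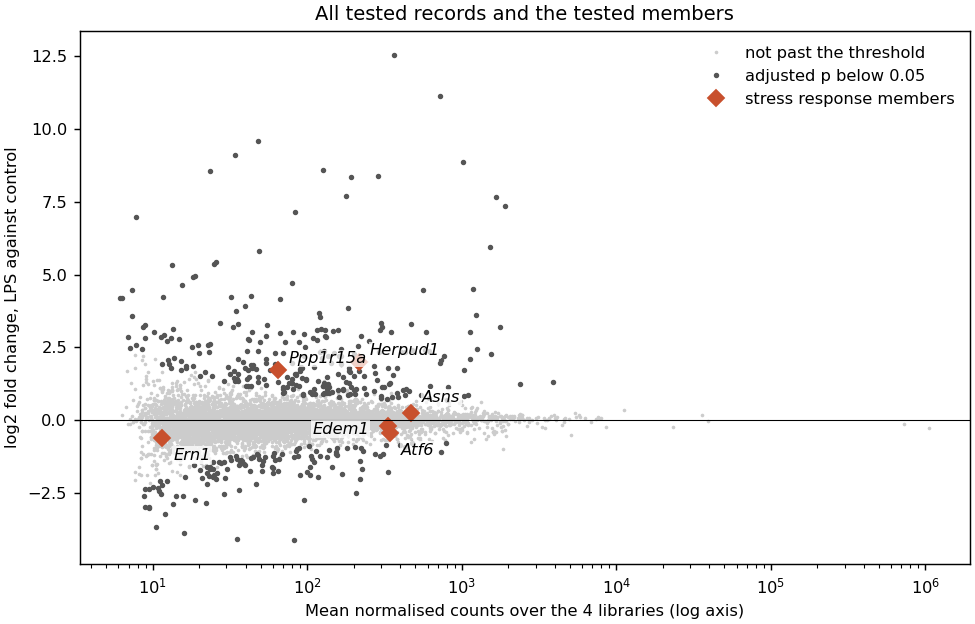
Log2 fold change of LPS against control (y axis) by mean normalised count (x axis, log scale) for the 6981 tested records, with the 6 tested members as diamonds. Herpud1 at 2.00 and Ppp1r15a at 1.72 lie among the records past the threshold (dark points), and the other 4 lie between -0.61 and 0.25 within the band of records that did not pass.

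Asns encodes asparagine synthetase, a standard target of ATF4 under amino acid lack. Asns (NM_012055, chromosome 6, 7675165 to 7693209) was the most abundant member, with 322 and 483 counts in controls and 559 and 518 after LPS. Normalised counts were 453 and 408 in controls and 517 and 507 after LPS. The LPS libraries lay above both controls by a small margin, with a log2 fold change of 0.25 (SE 0.177, edgeR adjusted p 0.612) that did not pass the test.

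The remaining members could not be tested. Trib3, a pseudokinase gene that ATF4 and CHOP switch on and that restrains them, had 2 and 8 counts in controls and 8 and 4 after LPS. Its pooled rate ratio of LPS over control was 1.08, with an exact 95% interval of 0.428 to 2.79 that covers counting error only. Sesn2, which encodes sestrin 2, a leucine-sensing inhibitor of mTORC1, had 4 and 4 counts in controls and 1 and 5 after LPS, a rate ratio of 0.676 (interval 0.193 to 2.22). Both intervals reach well below and well above equal rates, so no difference was detectable for Trib3 or Sesn2 at this depth. Gm12981 overlaps Sesn2 on the same strand.

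Atf4, the central transcription factor of the integrated stress response, had 3 and 1 counts in controls and 0 and 2 after LPS, with a rate ratio of 0.450 (interval 0.0408 to 3.14). Ddit3, which encodes the pro-apoptotic factor CHOP, had 0 counts in 3 libraries and 1 in LPS replicate 2, so no fold is given. Atf4 and Ddit3 are the 2 members with 2 RefSeq records in the table, and their other record was at 0 throughout. Among coding genes with 1 record, 40.3% of 15498 had at least 40 counts over the 4 libraries, whereas 6.51% of 4488 coding genes with 2 or more records did. In the pathway lists described below, 84 of 97 genes with 1 record were tested, and 3 of 40 genes with 2 or more. The low counts of Atf4 and Ddit3 are not read here as low expression, since how reads shared between records were counted is not given in the sources used here.

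Normalised counts of the groups did not overlap in any of the 6 tested members, 3 higher and 3 lower after LPS. Over all tested records 43.4% did not overlap, 21.4% higher and 21.9% lower. The 6 passed a filter on low counts, so they do not stand for all 10 members. Ern1 passed it only through its controls, so its place among the 3 lower is partly set by the filter. Ratios between the control libraries went with GC content (Spearman's rho 0.66 across 6924 records that share those 2 libraries), and less so in the LPS pair (0.27). The transcripts of the tested members had 46.0% (Atf6) to 56.6% (Ppp1r15a) GC. The log2 ratio of control replicate 1 to 2 was 0.95 for Ppp1r15a, -0.11 for Herpud1 (53.0% GC) and 0.29 for Ern1 (50.6% GC). It was 0.15 for Asns (48.7% GC), 0.11 for Edem1 (46.6% GC) and -0.31 for Atf6. These ratios fell in the order of GC content in all but Herpud1, and the part of GC in them was not tested. With the GC and length trend removed, Herpud1 had a log2 fold change of 1.94 and Ppp1r15a of 1.73, both past the threshold. That fit called 444 records higher and 341 lower, so that 56.6% of calls were higher, against 69.2% (267 higher and 119 lower) without it. The DESeq2 Wald test called 202 higher and 56 lower, or 78.3%, and it called Herpud1 and Ppp1r15a and no other member.

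**Figure D3:**
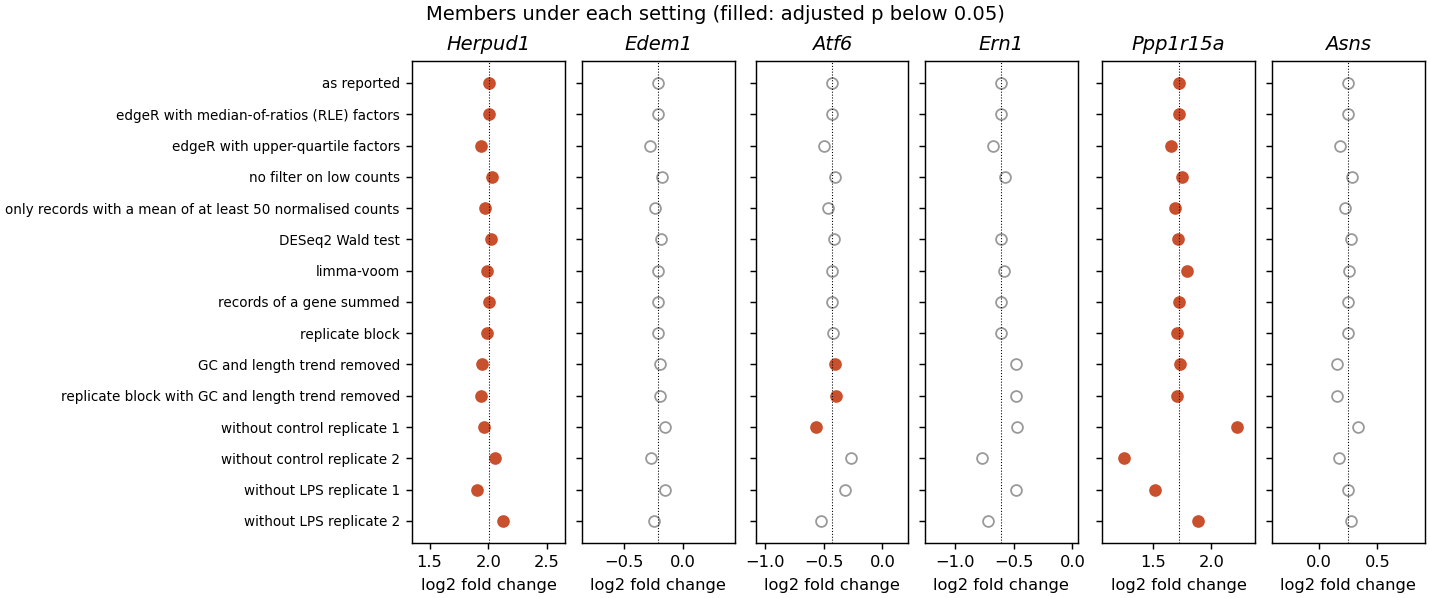
Log2 fold change of LPS against control (x axes, each 1.3 units wide) of the 6 tested members under the reported fit and 14 other settings (y axis), filled where the adjusted p was below 0.05. Herpud1 and Ppp1r15a are filled in every row, Ppp1r15a spreading from 1.25 to 2.21, and Atf6 is filled in 3 rows.

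Per 1000 bases of transcript, the order of the 6 tested members changed with LPS. In controls Asns was highest at 215 ± 16.0 normalised counts per 1000 bases. Edem1 followed at 61.6 ± 3.18, Atf6 at 54.7 ± 8.16 and Herpud1 at 44.2 ± 2.35, then Ppp1r15a at 13.3 ± 5.97 and Ern1 at 2.03 ± 0.286. Edem1 and Atf6 did not differ beyond their spread there. After LPS, Herpud1 stood second at 178 ± 19.8 normalised counts per 1000 bases, behind Asns at 256 ± 3.62. Ppp1r15a at 41.8 ± 7.56 reached the level of Atf6 at 40.7 ± 4.12, with overlapping values, below Edem1 at 53.3 ± 2.12. Lengths were those of the GENCODE transcripts matched to each record.

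The wider pathway was read from 7 lists holding 138 distinct genes, of which 137 were matched to a record and 87 were tested. Of these, 6 rose and none fell, or 6.90% past the threshold, close to the 5.53% of all records. The 6 were Herpud1, Ppp1r15a and 4 others, Slc7a11, Atf3, Gdf15 and Gadd45a. In controls Gdf15 had 2 and 3 counts and Gadd45a 2 in each, so neither would have been tested without higher LPS counts. The filter thus fixed their direction, and it partly sets the number of rises and the 6.90%. Over records averaging 50 or more normalised counts, 4 of 64 tested pathway genes were called, all higher. DESeq2 and limma-voom each called 5 of the genes higher and none lower, all of the 6 but Gadd45a, so the lists without a call in edgeR had none in these tools either. With either control library left out, more genes were called in these lists and more records were called over the whole table. Calls from those fits, of single genes too, are therefore not read as a trait of the pathway.

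The lists of the sensing and folding machinery held few calls. At the 5.53% called over all records, lists of this size would hold few as well. Of 12 listed UPR sensors and transcription factors, 8 were tested and none passed. Their median log2 fold change was -0.26, and 2 had an unadjusted p below 0.05 in edgeR. Of 22 listed ER chaperones and folding enzymes, 18 were tested. Xbp1 of the sensor list and Hspa5 and Canx of this list were not tested, being at 0 throughout as described in the last section. None of the 18 passed, with a median of -0.04, a range of -0.38 to 0.67 and 1 unadjusted p below 0.05. Calr, which encodes the chaperone calreticulin, was the most abundant of them, at 1895 ± 65.6 normalised counts in control cells and 1884 ± 261 after LPS. The highest value in that list, singled out after it was seen, was that of Ero1a, the ER oxidase that drives disulfide formation, at 71.5 ± 19.5 and 116 ± 6.15 (log2 fold change 0.67, edgeR adjusted p 0.202). Ero1a passed without control replicate 2 (1.00, adjusted p 0.00129) and not without control replicate 1 (0.45, adjusted p 0.133). In ER-associated degradation, Herpud1 was the 1 gene past the threshold among 15 tested. The median of those 15 was 0.24.

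Among 16 tested genes of eIF2, its kinases, exchange factor and phosphatases, Ppp1r15a was the 1 that passed, with a list median of 0.06. That share of calls was near the 5.53% of all records. Eif2s3x, which encodes the gamma subunit of eIF2, was the most abundant, at 3706 ± 1111 normalised counts in control cells and 4230 ± 246 after LPS. Its log2 fold change of 0.19 (edgeR adjusted p 0.832) became 0.53 without control replicate 2 (adjusted p 5.38e-05) and -0.079 without control replicate 1 (adjusted p 0.697). Eif2ak2, the double-stranded RNA sensor PKR and an interferon-stimulated gene, was picked after its values were seen and had 20.1 ± 2.59 and 31.9 ± 4.63 (log2 fold change 0.64, edgeR adjusted p 0.415).

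Targets of ATF4 and CHOP gave 3 rises among 9 tested genes of 22 listed, with a list median of 0.06, where 3.82% of all records were called higher. Of the 3, Gdf15 and Gadd45a were near 0 in controls and could pass the filter only through LPS, so this share is partly set by the filter. Atf3, a stress-induced repressor of transcription, had 60.5 and 56.5 normalised counts in control cells and 230 and 221 after LPS. The pairs were tight, and the log2 fold change was 1.95 (SE 0.218, edgeR adjusted p 0.000175). Gdf15, a secreted stress cytokine, had 2 and 3 counts in controls and 20 and 31 after LPS (change on the log2 scale 3.14, SE 0.569, edgeR adjusted p 0.00566). Gadd45a, a growth arrest gene, had 2 counts in each control and 17 and 11 after LPS (change on the log2 scale 2.58, SE 0.656, edgeR adjusted p 0.0382). Gdf15 lost its call without LPS replicate 2 (adjusted p 0.0814). Gadd45a lost it without control replicate 2 (0.108), LPS replicate 1 (0.581) or LPS replicate 2 (0.134), in limma-voom (0.0558) and in DESeq2 (0.427). Ddit4, an mTORC1 inhibitor gene chosen after its values were seen, had 33.9 ± 9.75 and 17.1 ± 0.665 normalised counts (log2 fold change -0.94, edgeR adjusted p 0.212). Ddit4 passed as lower without control replicate 2 (-1.25, adjusted p 0.0203) and not without control replicate 1 (-0.65, adjusted p 0.317). Map1lc3b, an autophagy gene and the most abundant of the list, had 299 ± 28.8 and 311 ± 31.4.

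**Figure D4:**
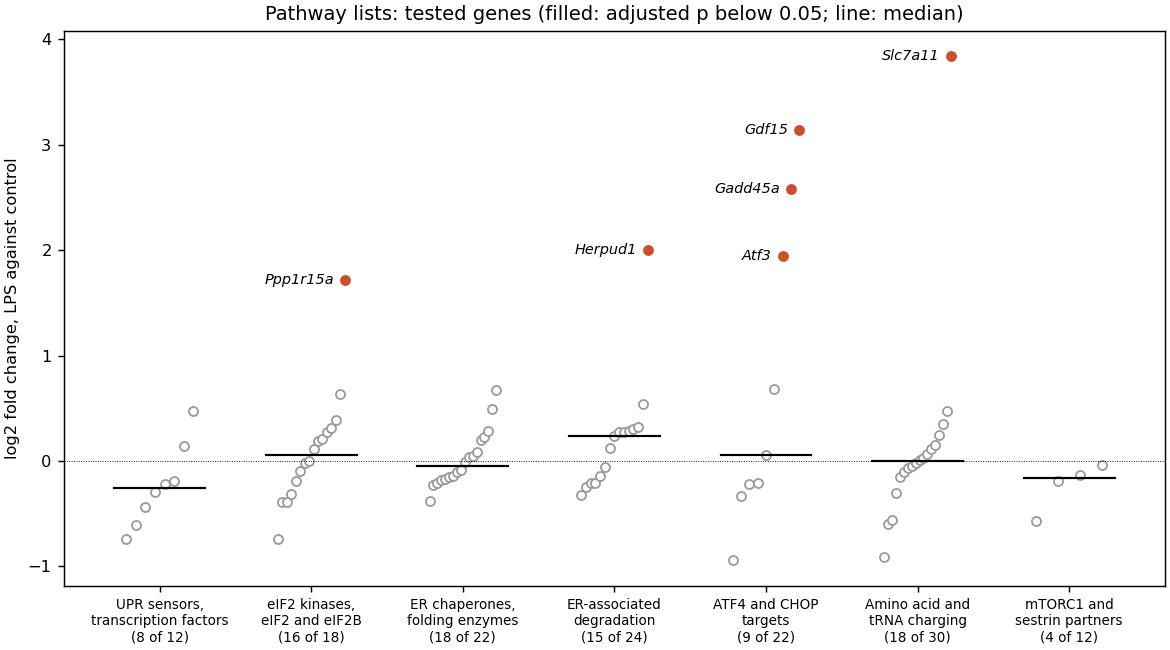
Log2 fold change of LPS against control (y axis) for every tested gene of the 7 pathway lists (x axis, with the number tested of the number listed), filled and named where the adjusted p was below 0.05, with a line at each list's median. The 6 filled genes lie between 1.72 and 3.84, while the list medians lie between -0.26 and 0.24.

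Genes of amino acid synthesis, transport and tRNA charging, which ATF4 switches on as a block, held 1 call among 18 tested. The list held 30 genes, its median was -0.00, and its share of calls was near the 5.53% of all records. The call was Slc7a11, the cystine transporter, which is also a target of NRF2. Its counts were 9 and 38 in controls and 339 and 384 after LPS, or 12.7 and 32.1 against 313 and 376 normalised counts. The LPS libraries were far above both controls (log2 fold change 3.84, SE 0.322, edgeR adjusted p 2.08e-05), and the value was 4.75 without control replicate 2 and 3.43 without control replicate 1. Phgdh, the first enzyme of serine synthesis and the most abundant gene of the list, had 2390 ± 297 normalised counts in control cells and 2309 ± 109 after LPS. Mthfd2, a mitochondrial folate enzyme gene picked after its values were seen, had 344 ± 23.1 and 439 ± 8.03 (log2 fold change 0.35, edgeR adjusted p 0.405). Mthfd2 passed without control replicate 2 (0.42, adjusted p 0.0456) and was 0.29 without control replicate 1 (adjusted p 0.177). None of the 4 tested genes of 12 mTORC1 and sestrin partners passed in edgeR, with 0 of them at an unadjusted p below 0.05, and Rheb, the most abundant, had 142 ± 36.2 and 140 ± 0.863 normalised counts.

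The records most like the 2 risen members were found by distance over the 4 libraries on a log2 scale centred per record, among 4117 records averaging 50 or more normalised counts. Nearest to Herpud1 were St3gal1 (distance 0.144), Atf3 (0.197) and Plaur (0.217), with log2 fold changes of 1.94, 1.95 and 1.88. Nearest to Ppp1r15a were Tmem132a (0.324), Zfp36 (0.333) and Mtmr14 (0.408), with log2 fold changes of 1.82, 1.93 and 1.58. Atf3 is the 1 of these 6 that is also in a pathway list. With 4 libraries in 2 groups, this likeness is mostly a like size of change and of the difference between control libraries.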

How the data were processed

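The submitters deposited whole-number counts per RefSeq transcript record for 4 libraries. Its name calls the table normalised, yet column totals differ and every value is whole, so the values were handled as raw counts. Directional paired-end libraries were made after rRNA depletion, per the labels' protocols. The build mm10 and the tools HTSeq 0.6.1 and TopHat2 2.0.10, beside Cufflinks 2.2.1, CASAVA 1.8.2 and Trimmomatic 0.33, come from the submitters' processing notes, which state no role or setting for any.

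Of 32915 records, 32487 matched a symbol in RefSeq tables of GRCm38.p6, the assembly behind mm10. GC content and length came from GENCODE M21 transcripts, matched for 99.2% of tested records. Coordinates are 1-based. Records were filtered with edgeR's filterByExpr (minimum count 10), scaled by TMM and tested on all 4 libraries without covariates (edgeR 4.0.16, R 4.3.3), with Benjamini-Hochberg adjustment over 6981 records. Normalised counts are counts per effective library size times the mean effective size of 3108147. The standard error is the unshrunken log2 fold change divided by the root of the F statistic. The test was run on simulated counts first. Alternatives, 14 in all, were DESeq2 1.42.0, limma-voom (limma 3.58.1), other scaling factors and filters, records summed per gene, a replicate block, removal of a GC and length trend, and leaving out each library. For genes under the filter, exact conditional intervals of the rate ratio are given.

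The members, lists, motifs and tests were chosen with earlier results of these data known. All 10 members are named. From the lists the text names every gene past the threshold and the most abundant gene that did not pass, and others as chosen after their values were seen. A gene under this rule is not reported here.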

Additional observations from a re-analysis of the deposited data

How the results depend on the processing

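Across 14 other settings and 23 named genes, 284 of 316 values kept their direction and side of the threshold. Herpud1 ran from 1.90 to 2.12 and Ppp1r15a from 1.25 to 2.21 on the log2 scale, with adjusted p-values of at most 0.000483 and 0.0226. The number of members called was 2 or 3 in every setting. The number of records called, 386 as reported, was 218 over records averaging 50 or more normalised counts, 785 with the GC and length trend removed, and 204 to 1304 with 1 library left out. The pathway genes called, 6 as reported, numbered 4 to 19 with 1 library left out (13 without control replicate 1, 19 without control replicate 2). The replicate numbers are not stated to mark shared cultures or days. Same-numbered libraries had deviations correlated at 0.24 across 6981 records and at 0.40 across the 4117 averaging 50 or more normalised counts. With the replicate block, 689 records, 7 pathway genes and 2 members were called, and with the block and the GC and length trend removed, 1092 records, 14 pathway genes and 3 members, Atf6 (adjusted p 0.0137) being the third. Ddit4 (-0.97, adjusted p 0.0282), Atf6b and Ero1a also passed in that fit. Ero1a passed with the block (adjusted p 0.0486), and no other call of a named gene changed with the block alone.

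Of the values that changed sign, none passed with the changed sign. Calr was 0.024 without a filter, 0.012 in DESeq2 and -0.14 to 0.14 with 1 library left out, above 0 without control replicate 1 or LPS replicate 2. Map1lc3b was -0.011 with upper-quartile factors and -0.043 (without control replicate 2) to 0.17 with 1 library left out, and -0.034 without LPS replicate 1. Leaving out 1 library gave -0.18 to 0.091 for Phgdh (0.091 without control replicate 1, 0.0057 without LPS replicate 2), -0.079 (without control replicate 1) to 0.53 for Eif2s3x (the latter without control replicate 2, adjusted p 5.38e-05) and -0.25 to 0.26 (without control replicate 2) for Rheb. The cause was not tested. Ern1, Ddit4, Eif2ak2, Eif2ak3, Gdf15 and Gadd45a have no value in the setting of records averaging 50 or more normalised counts. Few counts limit the precision of Ern1, Gdf15 and Gadd45a, and kept Atf4, Ddit3, Trib3 and Sesn2 out of the test.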

Other observations

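Several central genes of these pathways have 2 or more RefSeq records and were at 0 in every record and library. They include Hspa5, the main ER chaperone BiP, with 2 records, Xbp1, the target of IRE1, with 2, Canx, the chaperone calnexin, with 3, and Cebpb, a partner of ATF4 and CHOP, with 3. Sel1l, the scaffold of the degradation complex that HERPUD1 joins, had 1 count in control replicate 2 over its 2 records and none elsewhere. Of 40 genes with 2 or more records in the pathway lists, 15 were at 0 throughout. These genes are listed at 0 here, and their response to LPS is not described by these counts.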
